A study of Mus musculus with 18 samples.

Results

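Acta2, Actg2, Tagln, Cnn1, Cnn2, Myl9, Tpm1, Tpm2, Vcl and Myh9 encode parts of the actin contractile apparatus and of stress fibres. They were chosen by name, with earlier results of these data known. Each had 1 row on the array that was annotated to a single gene symbol, so that 10 of 10 listed genes were followed, among 22180 genes with such a row. Their RNA was measured in 3T3-L1, a line of mouse preadipocytes with the form of fibroblasts that turns into adipocytes when it is given hormones. WT cells and cells with a short hairpin RNA against SIRT6 (SIRT6 KD) were collected before induction (0 hr, T0) and 20 hr (T20) and 40 hr (T40) after induction, with 3 arrays in each of 6 groups and 18 arrays in all. SIRT6 is a NAD-dependent deacetylase of histones. The cell line, the hairpin, delivered by virus before induction, and the unit of time come from the study's text. In that text, induction is the addition of a cocktail of IBMX, dexamethasone and insulin in medium with fetal bovine serum. The line itself is grown there in medium with bovine serum. The sample labels give the genotype as wild type or SIRT6KD, mark T0 as untreated and T20 and T40 as treated with an inhibitor, and speak of mice. The cocktail, the serum and the time in culture therefore differ together between T0 and the later times, and their shares cannot be told apart. The labels do not say that the 3 arrays of a group came from separate cultures. The study's methods give a minimum of 3 biological replicates for its work in culture, without naming the arrays. The p-values measure the spread between these arrays, which may be technical.

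Stress fibres are bundles of actin filaments that are joined by crosslinkers, stiffened by tropomyosin and calponin and pulled by non-muscle or smooth muscle myosin, and they end in focal adhesions, where vinculin ties actin to integrins. Many genes of this apparatus carry a CArG box, the site of serum response factor (SRF), whose partners of the MRTF family are held in the cytoplasm by free actin monomers. Preadipocytes spread flat and hold stress fibres, and it is known from culture work that they round up and take their actin apart as they become adipocytes.

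Promoter stretches of Acta2, Cnn2, Myl9 and Vcl are shown because a CArG box, or in Acta2 a box with 1 other base, lies in them. Windows of 300 bases, from 250 bases before to 50 bases after the annotated start, were taken from RefSeq on build GRCm38.p6, and 8 of the 10 genes had one. A CArG box, CC and GG with 6 bases between them that are each A or T, was present in 3 of these 8 windows (Cnn2, Myl9 and Vcl) and in 1.63% of 32851 windows of all genes. A box with 1 other base within those 6 was present in 2 of 8 windows (Acta2 and Myl9) and in 8.5% of all windows. In the stretches below, written 5′ to 3′ on the strand of the gene, the box is in capitals.
Acta2, chr19:34255414-34255491, minus strand, box with 1 other base: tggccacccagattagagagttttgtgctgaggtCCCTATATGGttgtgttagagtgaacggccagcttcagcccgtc
Cnn2, chr10:79988510-79988587, plus strand: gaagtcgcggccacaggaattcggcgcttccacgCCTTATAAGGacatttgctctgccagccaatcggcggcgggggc
Myl9, chr2:156775269-156775346, plus strand: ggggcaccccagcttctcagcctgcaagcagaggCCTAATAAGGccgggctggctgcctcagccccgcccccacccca
Vcl, chr14:20929151-20929200, plus strand: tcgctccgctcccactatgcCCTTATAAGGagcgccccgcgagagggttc
Counted from the annotated start, the boxes began at -84 in Acta2, -56 in Cnn2, -161 in Myl9 and -227 in Vcl. A second box with 1 other base began at -34 in Acta2 and another at -99 in Myl9. The M-CAT element of the TEAD factors (CATTCC on either strand) was present in 3 of 8 windows, those of Acta2, Tpm1 and Vcl, against 14.7% of all windows, and none of these overlapped a box. Both strands were searched, and a match is a description of letters, not a measurement of binding.

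All of the genes except Cnn1 were at a lower level after induction in both genotypes, by between 1.46-fold (Myh9, SIRT6 KD at 20 hr) and 5.54-fold (Acta2, SIRT6 KD at 40 hr), and most of the drop had taken place by 20 hr. The standard errors of the log2 changes lay between 0.079 and 0.11. In WT cells, 9 of the 10 genes fell at 20 hr and 8 of 10 at 40 hr, where a call is a limma adjusted p under 0.05 over all 23521 rows tested and a fold above 1.5. Among all rows, 4.08% were called lower at 20 hr and 3.96% at 40 hr. In SIRT6 KD cells, 8 of the 10 fell at 20 hr, against 4.48% of all rows, and 9 of 10 at 40 hr, against 4.8%. None of the 10 rose in any of these 4 comparisons, in which 4.87%, 3.77%, 4% and 2.55% of all rows were called higher, in the same order. The median log2 change of the 10 genes was -1.19 at 20 hr and -1.35 at 40 hr in WT cells, and -1.2 and -1.38 in SIRT6 KD cells, while the medians over all rows were 0.002, 0.003, 0.029 and 0.044. For 9 of the 10 genes, all but Cnn1, each of the 6 arrays at 0 hr lay above each of the 12 later arrays, a pattern that 6.93% of all rows had. Because the genes were chosen with earlier results of these data known, the shares of all rows are a description and no test of the list. Both genotypes were set against their own 0 hr arrays, so the comparisons at 20 hr and 40 hr within a genotype share those controls. The samples are bulk RNA, in which fewer cells that express a gene and less of its RNA per cell cannot be told apart.

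**Figure D1:**
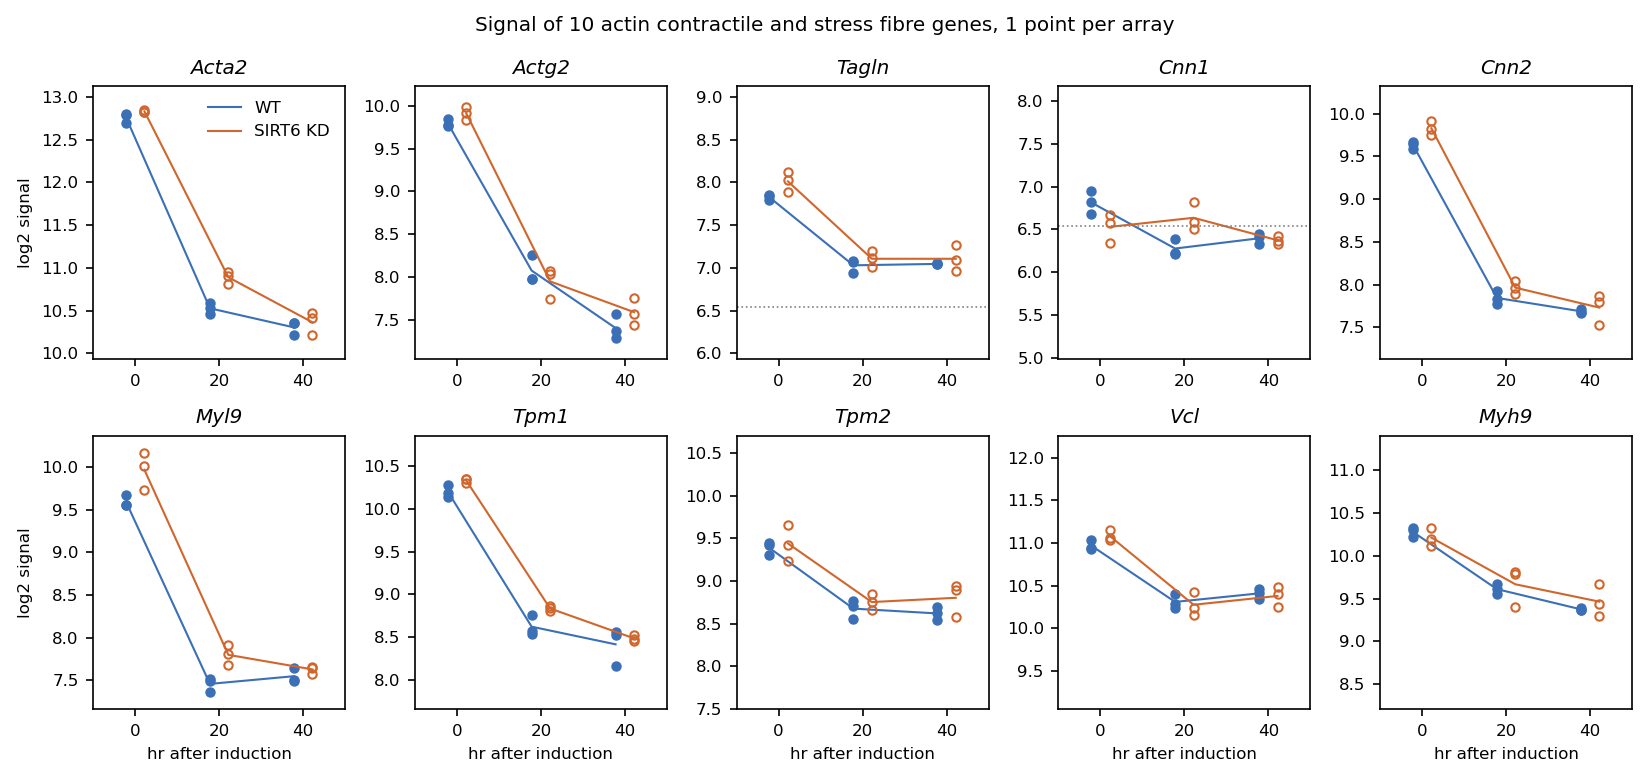
RNA level of each of the 10 genes (log2 RMA value, y axis, each panel spanning the same number of log2 units) at 0, 20 and 40 hr (x axis), with a point for each array and lines through the means of 3 arrays for WT and SIRT6 KD cells. The dotted line marks the 95th percentile of odorant and vomeronasal receptor rows, 6.546, near which Cnn1 lies, and every other gene starts well above its later values.

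The list holds the actin isoforms of smooth muscle. Acta2 encodes smooth muscle α-actin, which fibroblasts build into stress fibres when they become contractile. Its log2 values in WT cells were 12.79, 12.8 and 12.7 at 0 hr, 10.53, 10.46 and 10.59 at 20 hr and 10.35, 10.35 and 10.21 at 40 hr. In SIRT6 KD cells they were 12.83, 12.85 and 12.82 at 0 hr, 10.81, 10.91 and 10.95 at 20 hr and 10.47, 10.21 and 10.41 at 40 hr. The lowest array at 0 hr was 1.75 above the highest later array, and the arrays of the 2 genotypes overlapped at 40 hr but not at 0 hr or 20 hr. In WT cells Acta2 fell 4.71-fold by 20 hr (log2 change -2.24, SE 0.079, adjusted p = 2.16e-13, n = 3 and 3) and 5.5-fold by 40 hr (-2.46, adjusted p = 4.21e-14). In SIRT6 KD cells it fell 3.84-fold by 20 hr (-1.94, adjusted p = 1.25e-12) and 5.54-fold by 40 hr (-2.47, adjusted p = 3.92e-14). Ordered from the largest decrease, Acta2 stood at rank 33 and 24 of 23521 rows in WT cells, at 20 hr and 40 hr, and at rank 55 and 29 in SIRT6 KD cells.

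Actg2, the γ-actin of enteric smooth muscle, had log2 values of 9.77, 9.85 and 9.78 in WT cells at 0 hr, 7.98, 8.26 and 7.98 at 20 hr and 7.36, 7.28 and 7.56 at 40 hr. In SIRT6 KD cells its values were 9.92, 9.84 and 9.99, then 7.74, 8.03 and 8.07, then 7.57, 7.75 and 7.44. All arrays at 0 hr were far above the rest, and the WT arrays at 40 hr were all below those at 20 hr. Actg2 fell 3.31-fold by 20 hr and 5.28-fold by 40 hr in WT cells (adjusted p = 4.2e-10 and 3.46e-12) and 3.9-fold and 5.03-fold in SIRT6 KD cells (8.13e-11 and 5.6e-12). It was the 1 gene of the 10 that fell again between 20 hr and 40 hr in WT cells (log2 change -0.67), where 2.19% of all rows were called lower. That call was lost without the second WT array at 20 hr, which left a change of -0.58, just under the fold required. Acta2 and Actg2 code for nearly the same protein, and whether their probes take up RNA of the other gene was not examined here, so the share of each in the 2 measurements is uncertain.

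The myosin genes of the list fell with them, to different degrees. Myl9 encodes the regulatory light chain whose phosphorylation switches on contraction, and its WT log2 values were 9.56, 9.67 and 9.55 at 0 hr, 7.52, 7.37 and 7.49 at 20 hr and 7.65, 7.49 and 7.51 at 40 hr. Its values in SIRT6 KD cells were 9.73, 10.16 and 10.01 at 0 hr, 7.68, 7.81 and 7.91 at 20 hr and 7.58, 7.65 and 7.66 at 40 hr. The 3 SIRT6 KD arrays were above the 3 WT arrays at 0 hr and again at 20 hr, but not at 40 hr. Myl9 fell 4.38-fold by 20 hr and 4.11-fold by 40 hr in WT cells, and 4.5-fold and 5.05-fold in SIRT6 KD cells (adjusted p between 1.3e-12 and 8.47e-12). Myh9, the heavy chain of non-muscle myosin IIA, had WT means of 10.28 ± 0.0517 at 0 hr, 9.612 ± 0.0628 at 20 hr and 9.375 ± 0.0144 at 40 hr (SD, n = 3), and SIRT6 KD means of 10.22 ± 0.102, 9.665 ± 0.229 and 9.463 ± 0.189. Myh9 fell 1.59-fold and 1.88-fold in WT cells and, in SIRT6 KD cells, 1.68-fold by 40 hr. At 20 hr its SIRT6 KD log2 change of -0.55 had an adjusted p of 0.00051 but was below the fold required.

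Among the proteins that bind along the actin filament, calponin 2 and tropomyosin 1 had the larger values. Cnn2, a calponin found in many cell types besides muscle, gave WT log2 values of 9.59, 9.67 and 9.65 at 0 hr, 7.77, 7.93 and 7.83 at 20 hr and 7.68, 7.71 and 7.67 at 40 hr. Its SIRT6 KD values were 9.82, 9.92 and 9.75, then 7.89, 7.96 and 8.04, then 7.87, 7.53 and 7.79, so that the later times of both genotypes lay close together. Cnn2 fell 3.47-fold and 3.86-fold in WT cells and 3.65-fold and 4.28-fold in SIRT6 KD cells, at 20 hr and 40 hr. Tpm1 encodes a tropomyosin, a coiled coil that lies in the groove of the actin filament. Its WT values ran from 10.14 to 10.28 at 0 hr, from 8.53 to 8.76 at 20 hr and from 8.16 to 8.56 at 40 hr, and its SIRT6 KD values from 10.3 to 10.35, from 8.8 to 8.86 and from 8.45 to 8.52. Tpm1 fell 3-fold and 3.47-fold in WT cells and 2.83-fold and 3.61-fold in SIRT6 KD cells. Tpm2, the β-tropomyosin, fell less, by 1.64-fold and 1.71-fold in WT cells and by 1.61-fold and 1.56-fold in SIRT6 KD cells. Tagln (transgelin, also called SM22α) binds actin and is a common marker of smooth muscle and of contractile fibroblasts. It ranged from 7.79 to 7.85 in WT cells at 0 hr and from 6.94 to 7.08 over the 6 later WT arrays, and it fell 1.74-fold by 20 hr and 1.72-fold by 40 hr, with 1.87-fold and 1.88-fold in SIRT6 KD cells. The adjusted p of the decreases called for these 4 genes was at most 0.000173 (Tpm2, SIRT6 KD at 40 hr).

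Vcl encodes vinculin, which links the filament to the focal adhesion. Its WT values were 11.04, 10.94 and 10.93 at 0 hr, 10.4, 10.29 and 10.24 at 20 hr and 10.42, 10.46 and 10.35 at 40 hr, with no overlap between 0 hr and the later times. Vcl fell 1.58-fold by 20 hr in WT cells (adjusted p = 5.85e-06) and 1.75-fold and 1.63-fold in SIRT6 KD cells. Its WT log2 change of -0.56 at 40 hr had an adjusted p of 4.48e-05, but the fold of 1.48 was just under the one required.

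Cnn1, the calponin of differentiated smooth muscle, was the exception among the 10. Its mean over 18 arrays, 6.504, was under 6.546, the 95th percentile of 1405 rows of odorant and vomeronasal receptors, which are not expected in these cells, and 53.5% of all rows were above that level. In WT cells its values were 6.82, 6.68 and 6.95 at 0 hr, 6.21, 6.23 and 6.39 at 20 hr and 6.41, 6.33 and 6.45 at 40 hr, and in SIRT6 KD cells they were 6.67, 6.58 and 6.34, then 6.5, 6.82 and 6.59, then 6.33, 6.37 and 6.42. The WT arrays at 0 hr were above all later WT arrays, whereas in SIRT6 KD cells the arrays at 0 hr overlapped those of both later times. Its WT log2 changes of -0.54 (adjusted p = 0.000318) and -0.42 (0.00345) were below the fold required, and those in SIRT6 KD cells were 0.11 (0.505) and -0.15 (0.299).

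**Figure D2:**
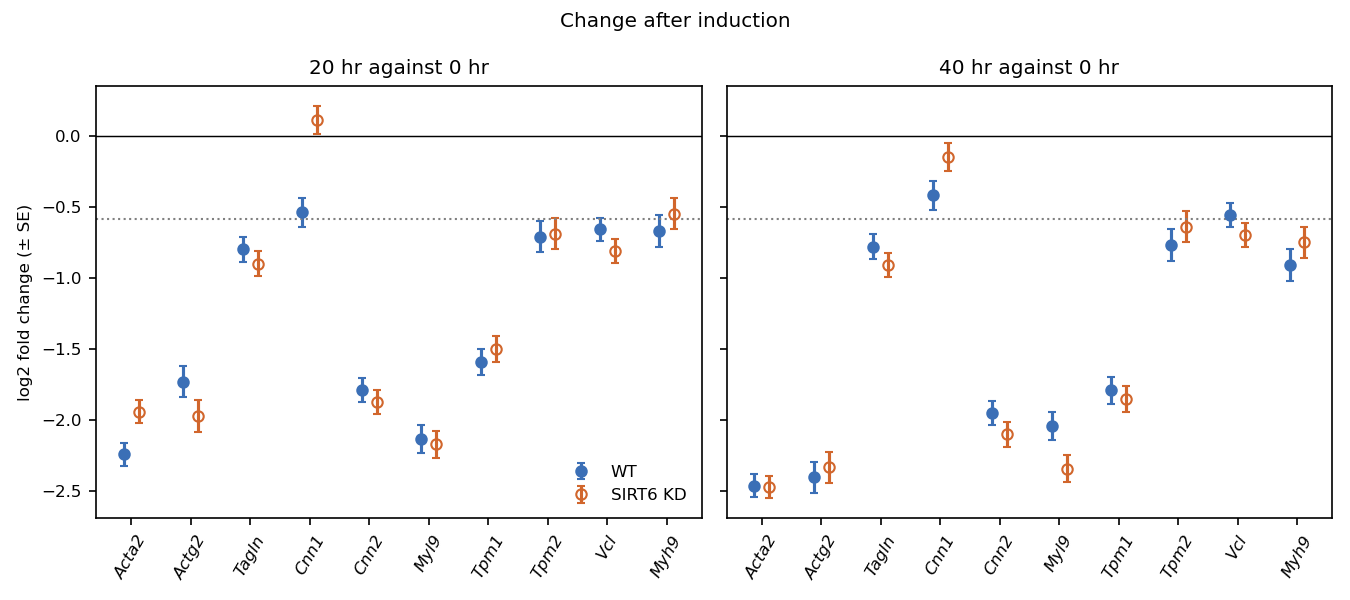
Log2 change of each of the 10 genes against 0 hr (y axis) at 20 hr and 40 hr in WT and SIRT6 KD cells, with standard errors from the limma fit and a dotted line at a decrease of 1.5-fold. Acta2, Actg2, Myl9, Cnn2 and Tpm1 lie between -1.5 and -2.47, Tagln, Tpm2, Vcl and Myh9 between -0.55 and -0.91, and Cnn1 between -0.54 and 0.11.

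The time of the change was also compared. At 20 hr Acta2 had reached 90.9% of its 40 hr log2 change in WT cells and 78.7% in SIRT6 KD cells, and for the other genes apart from Cnn1 this share lay between 72% (Actg2, WT) and 118% (Vcl, WT). Values above 100 mean a lower level at 20 hr than at 40 hr, as for Vcl in both genotypes (118% and 115%), Myl9 and Tagln in WT cells (104% and 102%) and Tpm2 in SIRT6 KD cells (108%). Between 20 hr and 40 hr in SIRT6 KD cells none of the 10 genes was called lower, against 2.46% of all rows. At an unadjusted p under 0.05 there were 5 of the 10, against 21.7% of all rows. Of these 5, 3 had an adjusted p under 0.05 with a fold under 1.5: Acta2 with a log2 change of -0.53 (9.12e-05), Actg2 with -0.36 (0.0348) and Tpm1 with -0.35 (0.0185). The share of all rows at that adjusted p without a fold minimum is not given here. In WT cells the Acta2 change between these times was -0.22 (SE 0.079, adjusted p = 0.095). At an unadjusted p under 0.05 by limma, 4 of the 10 genes differed between these times in WT cells, against 18.1% of all rows.

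SIRT6 KD and WT cells were then compared at each time, to ask whether the knockdown moved these genes. Sirt6 itself was the check of the labels: its log2 means were 7.242 ± 0.141, 7.191 ± 0.205 and 7.132 ± 0.0509 in WT cells and 7.067 ± 0.125, 6.893 ± 0.143 and 6.909 ± 0.143 in SIRT6 KD cells at 0, 20 and 40 hr (SD, n = 3). The difference over the 3 times was -0.23 (SE 0.064), with an adjusted p of 0.136 by limma. Sirt6 was thus lower in SIRT6 KD cells on average but was not called, which limits the comparisons of genotypes that follow. The study followed SIRT6 protein by western blot, which these arrays do not measure. Arrays of a group correlated at r from 0.9905 to 0.9954 over all rows, and 5 of 18 arrays were, on average, closer to the other genotype at their time than to their own group. These were all 3 SIRT6 KD arrays at 20 hr, the first SIRT6 KD array at 40 hr and the third WT array at 0 hr.

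None of the 10 genes was called at any single time by limma, without a fold minimum. At 0 hr 0% of all rows were called, at 20 hr 0.0213% and at 40 hr 0.0935%. At an unadjusted p under 0.05, 4 of the 10 genes differed at 0 hr, 4 at 20 hr and 0 at 40 hr, against 6.91%, 6.65% and 11% of all rows. The 3 SIRT6 KD arrays did not overlap the 3 WT arrays for 7 of the 10 genes at 0 hr, a pattern found in 12.3% of all rows. SIRT6 KD was the higher in 6 of them (Acta2, Tagln, Cnn2, Myl9, Tpm1 and Vcl) and the lower in Cnn1. At 20 hr this held for 4 genes (Acta2, Cnn1, Myl9 and Tpm1), all higher in SIRT6 KD cells, against 11.7% of all rows, and at 40 hr for 0 genes, against 15.9%. With 3 arrays against 3, an exact permutation test of a single gene cannot go below p = 0.1 (two-sided), which is the value for each of these genes.

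Apart from Cnn1, whose genotype differences of -0.29 at 0 hr and 0.36 at 20 hr were similar in size to its changes with time, the genotype differences were smaller than the changes after induction. Acta2 was 0.37 higher on the log2 scale in SIRT6 KD cells at 20 hr (1.29-fold, 95% interval 0.2 to 0.53, adjusted p = 0.194) and 0.07 and 0.06 higher at 0 hr and 40 hr. Myl9 was 0.37 higher at 0 hr (interval 0.17 to 0.58, adjusted p = 0.556), 0.33 higher at 20 hr (0.13 to 0.54, adjusted p = 0.474) and 0.08 higher at 40 hr (-0.13 to 0.28, adjusted p = 0.825). With a trend in the variance and robust estimation, the Acta2 difference at 20 hr was called (adjusted p = 0.00947), and over all alternatives its adjusted p ran from 0.00947 to 0.699.

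Averaged over the 3 times, Myl9 was the 1 gene called, higher in SIRT6 KD cells by 0.26 on the log2 scale (SE 0.056, adjusted p = 0.0491), against 0.378% of all rows. Its means were above those of WT at each of the 3 times. The call lay at the threshold: it was lost when any 1 of 16 of the 18 arrays was left out, with adjusted p up to 0.121, and it was also lost with the replicate number as a block (adjusted p = 0.0782), with an unmoderated test (0.0704), with all rows of the table (0.117) and with median centring (0.0682), and the direction stayed. The mean difference of Acta2 was 0.17 (SE 0.045, adjusted p = 0.131), that of Tpm1 0.14 (adjusted p = 0.303) and that of Cnn2 0.12 (adjusted p = 0.344), and those of the other 6 genes lay between 0.01 and 0.11. All 10 differences were above 0, with a median of 0.11, while 45.9% of all rows were above 0 and their median was -0.008. The genes vary together across arrays, so the 10 are not separate observations of the knockdown.

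**Figure D3:**
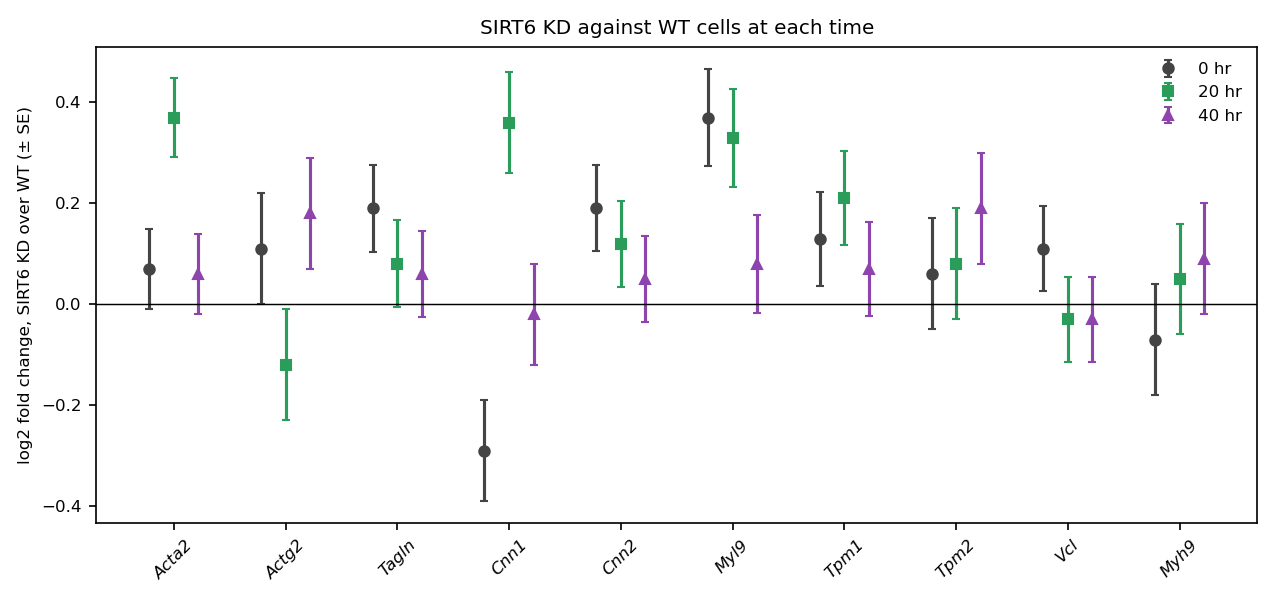
Difference between SIRT6 KD and WT cells (log2, y axis) for each of the 10 genes (x axis) at 0, 20 and 40 hr, with standard errors from the limma fit and 3 arrays in each group. Values lie between -0.29 (Cnn1, 0 hr) and 0.37 (Myl9, 0 hr, and Acta2, 20 hr), and none of them was called.

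Whether the change after induction itself differed between the genotypes was tested as an interaction. None of the 10 genes passed by limma in the SIRT6 KD effect at 20 hr less that at 0 hr, at 40 hr less that at 0 hr or at 40 hr less that at 20 hr, and 0% of all rows passed in each. At an unadjusted p under 0.05 the counts were 2, 1 and 2 of the 10 genes, against 5.02%, 9.37% and 4.44% of all rows. The value for Acta2 between 0 hr and 20 hr was 0.29 (95% interval 0.06 to 0.53, adjusted p = 0.936) and that for Myl9 between 0 hr and 40 hr was -0.3 (-0.59 to -0.01, adjusted p = 0.516).

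Other genes of the apparatus were taken from lists of known function. Of 24 further actin, myosin, tropomyosin and filament-binding genes, 0 rose and 3 fell in WT cells at 20 hr, and 0 rose and 4 fell at 40 hr. In SIRT6 KD cells 1 rose and 4 fell at 20 hr, and 0 rose and 9 fell at 40 hr. Among all rows, 4.08%, 3.96%, 4.48% and 4.8% were called lower in these 4 comparisons, and 4.87%, 3.77%, 4% and 2.55% were called higher. The median log2 changes of the 24 genes were -0.15, -0.31, -0.25 and -0.38 in that order. Cald1, caldesmon, which binds actin and myosin, fell at 20 hr and 40 hr, with log2 changes of -0.83 and -1.01 in WT cells and -0.87 and -1.04 in SIRT6 KD cells. Mylk, the kinase that phosphorylates the light chain of Myl9, fell at 20 hr, with changes of -1.04 in WT cells and -1.29 in SIRT6 KD cells. At 40 hr its changes were -0.47, under the fold required, and -0.63, with means of 7.216 and 7.208 against 6.641 and 6.554 at 20 hr, so it was the lowest at 20 hr. Myh10, the heavy chain of non-muscle myosin IIB, and Smtn, smoothelin, had WT changes of -0.25 and -0.15 at 20 hr that were not called, and both fell by 40 hr (-0.86 and -0.71).

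**Figure D4:**
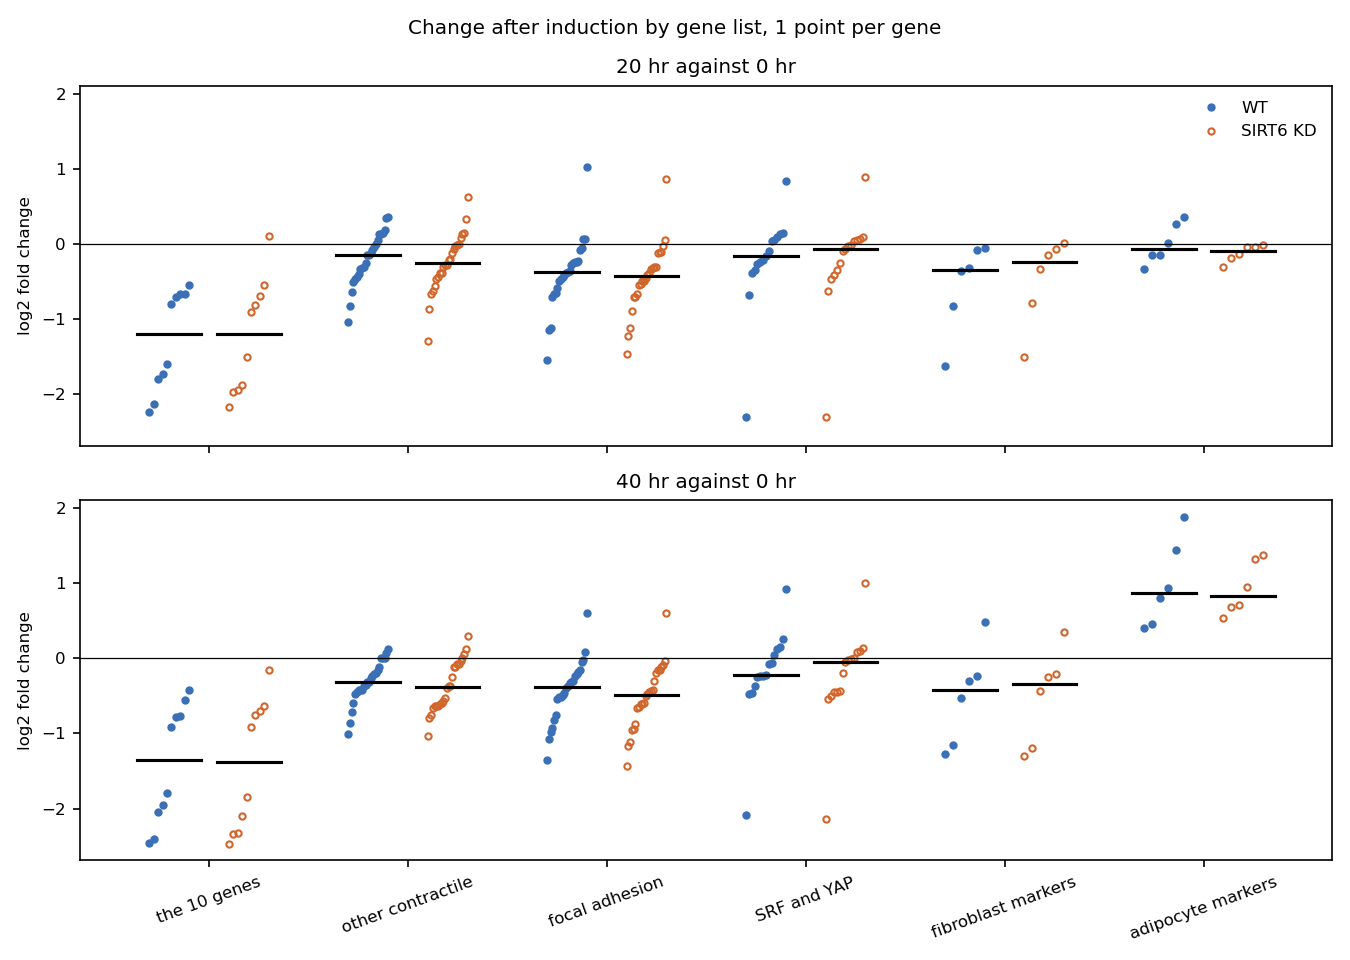
Log2 change against 0 hr (y axis) of the genes of each list (x axis) at 20 hr and 40 hr in WT and SIRT6 KD cells, with a point for each gene and a bar at the median. The median of the 10 genes lies between -1.19 and -1.38, that of the further contractile genes between -0.15 and -0.38 and that of the focal adhesion genes between -0.37 and -0.49.

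Of 26 listed focal adhesion genes, 24 had a row. In WT cells 1 rose and 6 fell at each of the 2 times, and in SIRT6 KD cells 1 rose with 7 falling at 20 hr and 11 at 40 hr, with medians between -0.37 and -0.49. The shares of all rows were 4.08% and 3.96% lower and 4.87% and 3.77% higher in WT cells. In SIRT6 KD cells they were 4.48% and 4.8% lower and 4% and 2.55% higher. Tns3, a tensin that joins actin to integrin tails, fell at both times, with log2 changes of -1.54 and -1.36 in WT cells and -1.46 and -1.43 in SIRT6 KD cells. The LIM proteins Fhl2 and Tgfb1i1 (Hic-5) fell too, with changes at 20 hr of -1.14 and -1.11 in WT cells and -1.12 and -1.22 in SIRT6 KD cells. The gene that rose was Itga5, the α5 chain of the fibronectin receptor, by 1.03 and 0.6 in WT cells and by 0.87 and 0.6 in SIRT6 KD cells.

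Of 15 genes of the SRF, MRTF, YAP and TEAD factors and their direct targets, 1 rose and 2 fell at 20 hr and 1 rose and 1 fell at 40 hr in either genotype, which with so few genes is near the shares of all rows given above and is no result about the list. Ccn1, a secreted matricellular protein and a known target of YAP and SRF, fell, with a log2 change of -2.3 at 20 hr in both genotypes and of -2.09 in WT and -2.14 in SIRT6 KD cells at 40 hr. Axl, a receptor tyrosine kinase, fell at 20 hr, with -0.68 in WT and -0.62 in SIRT6 KD cells. Tead4, a DNA-binding partner of YAP, was the gene that rose, by 0.84 and 0.93 in WT cells and by 0.9 and 1.01 in SIRT6 KD cells. The highest adjusted p among the calls given so far for genes of these lists was 0.000212 (Mylk, SIRT6 KD at 40 hr).

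Markers of cell types were followed as well. Of 6 fibroblast and preadipocyte markers, all measured above the receptor level, 2 fell in each of the 4 comparisons, against 4.08%, 3.96%, 4.48% and 4.8% of all rows. These were Pdgfrb (log2 changes of -1.62 and -1.27 in WT cells) and Col1a1 (-0.83 and -1.15). The other 4 were not called, and Pdgfra was higher at 40 hr, with means of 11.19 at 0 hr and 11.67 at 40 hr in WT cells and of 11.25 and 11.6 in SIRT6 KD cells. The mean level of the 6 ran from 10.7 to 10.86 over the arrays at 0 hr and from 10.19 to 10.35 over the later arrays. Of 6 adipocyte markers 0 rose at 20 hr in either genotype, against 4.87% of all rows in WT and 4% in SIRT6 KD cells. At 40 hr 4 rose in WT and 5 in SIRT6 KD cells, against 3.77% and 2.55% of all rows. The mean level of these 6 ran from 7.98 to 8.24 over the arrays at 0 hr and 20 hr and from 8.98 to 9.19 at 40 hr. The 9 genes with lower levels after induction were so at 20 hr already, when none of the adipocyte markers was called higher. Of 5 smooth muscle markers, Lmod1 and Myocd were under the receptor level, Des (mean 6.605) and Myh11 (6.94) were a little above it and Smtn (7.585) was well above it. Of these 5, 0 fell at 20 hr in either genotype, against 4.08% of all rows in WT and 4.48% in SIRT6 KD cells. At 40 hr 1 (Smtn) fell in WT cells and 2 (Smtn and Lmod1) in SIRT6 KD cells, against 3.96% and 4.8% of all rows. The mean level of the 5 ran from 6.8 to 7.07 over the arrays at 0 hr and from 6.6 to 6.79 over the later arrays. Of the other markers, 2 of 5 for striated muscle, 0 of 4 for endothelium, 1 of 4 for macrophages and 1 of 4 for epithelium were above that level, and their mean level stayed between 5.89 and 6.29 in every array. The part of these markers in the change of the 10 genes was not tested.

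The genes whose levels followed Acta2 most closely over the 18 arrays were Anxa3 (Pearson r 0.997), Akap12 (0.994), Thbs2 (0.993), Pcdh18 (0.992), Syne1 (0.992) and Cald1 (0.991), among genes outside the list with a mean above the receptor level. Within the list, Tpm1 (0.995), Cnn2 (0.994), Myl9 (0.984), Actg2 (0.978), Tagln (0.959), Myh9 (0.953), Tpm2 (0.935) and Vcl (0.934) were close to it and Cnn1 was not (0.627). Such correlations follow the step between 0 hr and the later times that all groups share, and 778 rows, 3.31% of those tested, had an r above 0.9. Anxa3, an annexin, had log2 changes of -2.22 and -1.93 at 20 hr in WT and SIRT6 KD cells, and Syne1, which ties the nucleus to actin, had -2.44 and -2.49. From the highest to the lowest level, the order of the groups for Acta2 was SIRT6 KD and WT at 0 hr, SIRT6 KD at 20 hr, WT at 20 hr, and then SIRT6 KD and WT at 40 hr, and neighbours among the 3 lowest groups overlapped.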

How the data were processed

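RNA of 6 groups (WT and SIRT6 KD cells at 0, 20 and 40 hr, 3 arrays each) had been measured on Affymetrix Mouse Gene ST arrays. The deposited log2 values come from RMA as run by the authors (background correction, quantile normalization and a summary per probe set); its version and the genome build are not given in the sources used here. The number of arrays limits the precision.

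Of 41345 rows, 16004 had no gene symbol and 1820 had several, and 23521 with exactly 1 symbol were tested, with no filter on signal. The row with the highest mean over 18 arrays stood for a gene. A model of 6 group means was fitted to all rows with limma 3.58.1 (lmFit and eBayes, R 4.3.3; residual df 12, prior df 6.37), and p-values were adjusted by Benjamini-Hochberg over all rows. A row was called at an adjusted p under 0.05, and for changes with time also at a fold above 1.5. Alternatives were an unmoderated test, after the analysis of variance in the paper's methods, a trend with robust estimation, a block of replicate numbers, a filter on dim rows, all rows, median centring, cyclic loess, the compared groups alone, no fold minimum and each array left out in turn. The fit was tested on simulated data.

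The 10 genes, the gene lists and the markers were chosen with earlier results of these data known. A further gene list is not reported here. All 10 genes were named, with up to 4 called genes of each other list that had the largest WT change and the 6 genes most like Acta2. Over all pairs of groups, same-numbered arrays deviated together little (r over 0.1 in 4 of 45 pairs, range -0.22 to 0.18). Between the genotypes at the same time, r was 0.12, 0.05 and 0.18 at 0 hr and 0.16, 0.07 and 0.0045 at 20 hr. At 40 hr it was -0.058, -0.051 and 0.025. With 3 arrays in a group these values cannot exclude that the numbers pair the arrays, and the main model used no pairing.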

Additional observations from a re-analysis of the deposited data

Results flagged for a closer look

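The calponin gene Cnn1 was the 1 gene whose genotypes changed places between times with no overlap of their arrays at either time. All 3 SIRT6 KD arrays were below all 3 WT arrays at 0 hr (log2 difference -0.29, adjusted p = 0.661) and above them at 20 hr (0.36, adjusted p = 0.419), and the 2 differences were 0.65 apart. The test of that difference by limma gave an unadjusted p of 0.000204 and an adjusted p of 0.795 over all rows. Cnn1 was picked out by the values of these same arrays, so the unadjusted p is no separate support. The mean of Cnn1, 6.504, was below the receptor level of 6.546. By group means alone, smaller differences also changed sign between 0 hr and 20 hr. These were Actg2 (0.11 and -0.12), Vcl (0.11 and -0.03) and Myh9 (-0.07 and 0.05).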

How the results depend on the processing

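Of the gene values under other settings, 724 kept direction and side of the threshold, 6 lost a call, 10 gained one and 1 changed sign; with an array left out these counts were 616, 20, 6 and 18. Apart from Cnn1, none of the changes against 0 hr was above 0 in any alternative. The mean difference over times, 1 member called (Myl9), gave 0 with the replicate block, the unmoderated test, all rows of the table and median centring (Myl9 adjusted p 0.0782, 0.0704, 0.117 and 0.0682), 2 with trend and robust estimation (Acta2 added) and 0 to 1 with an array left out; all rows called went from 89 to 55, 119, 39, 62 and 181 in that order, and to 185 among rows above the receptor level. The block changed no other member call. At 20 hr, trend and robust estimation raised the members called between genotypes from 0 to 1 (Acta2). The share of all rows called with it at 20 hr is not given here. Without a fold minimum, 3 members fell between 20 hr and 40 hr in SIRT6 KD cells in place of 0, with no share of all rows given. For the same step WT cells gave 0 to 1 member called with an array left out (0 without the second WT array at 20 hr). Members called against 0 hr ranged from 7 to 10 in WT cells at 20 hr, the 7 under median centring, where Vcl (-0.57) and Myh9 (-0.58) missed the fold. Small genotype differences changed sign: Vcl at 40 hr under cyclic loess (0.03) and with an array left out (-0.08 to 0.04), and, with an array left out, Vcl at 20 hr (-0.11 to 0.03) and over times (-0.01 to 0.04), Cnn1 at 40 hr (-0.06 to 0) and over times (-0.02 to 0.05), Myh9 at 20 hr (-0.02 to 0.19), 40 hr (-0.01 to 0.17) and over times (-0.01 to 0.07), Tpm1 (-0.05 to 0.15), Cnn2 (-0.02 to 0.15) and Tagln (-0.02 to 0.13) at 40 hr, and Tpm2 at 0 hr (-0.05 to 0.16). The causes were not tested. No scaling moved the median of all rows by over 0.1. Each member had 1 row, so a second row could not be tried. Cnn1, near the receptor level, is the gene that signal limits most.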
